A study of Mus musculus with 23 samples.

Results

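A group of 10 immediate early genes was followed through RNA-seq of the mouse small intestine, namely Fos, Fosb, Jun, Junb, Egr1, Atf3, Ier2, Dusp1, Zfp36 and Nr4a1. They were taken by symbol and made up 10 of the 19215 entries of the expression table. The genes were chosen by their class and in part by 1 measured value, the level of Atf3, which was higher after A10-FMT than in Sa when both sets of mice were averaged, so that comparison is given here as values, without a test, for every one of the 10 genes. For Atf3 itself the same holds wherever A10-FMT or Sa enters a comparison, apart from the differences between the sets. The choice did not use those differences as such. For Atf3 those against Sa are still not independent of it, since Sa had 2 libraries in set 1 and 3 in set 2. The question of the study was whether gut microbiota from donors dosed with alginate oligosaccharides (AOS) acts on an intestine injured by busulfan, an alkylating drug used in chemotherapy.

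All 23 libraries came from ICR mice, and every group, Sa included, carried the busulfan injury, so no uninjured intestine entered the comparisons. By the methods the recipients were males given 40 mg/kg busulfan once at 3 weeks of age and then gavaged daily from the next day. Sa mice received saline. Con-FMT, A10-FMT and A100-FMT mice received luminal contents of the small intestine, pooled over donors that had been dosed with water, AOS at 10 mg/kg or AOS at 100 mg/kg, so each transplant was 1 pooled material. The labels place the mice in 2 sets, here set 1 and set 2, without saying how the sets differ. For the animals of set 1 the methods give 1 week of gavage and 1 further week before sampling at 5 weeks of age. Each treatment had 3 libraries in each set, except Sa of set 1, which had 2.

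Immediate early genes are switched on within minutes of a stimulus, from proteins already in the cell, and their transcripts are short-lived. Growth factors, cytokines and cell stress reach them through MAP kinases, the serum response factor and the CREB/ATF family. Fos and Jun proteins pair to form the transcription factor AP-1, Atf3 is a stress-induced member of the same bZIP superfamily, and Dusp1 and Zfp36 act as brakes on the response. In the intestinal epithelium they are known for their response to injury, feeding, growth factors and microbial products.

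Levels are in FPKM, fragments scaled to transcript length and library size, and differences are in log2(FPKM + 1), a scale that understates the change of low genes. A difference was called at an adjusted p under 0.05 with limma, fitted to the 11337 genes whose mean reached 1 FPKM. Of the 10 genes, 8 passed that filter. Fosb (mean 0.204 FPKM) and Nr4a1 (mean 0.219 FPKM) did not and are given as values only. Nothing in the labels or methods says whether the libraries of a group were separate animals from separate cages, so the p-values measure the spread between these libraries.

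The Sa library of set 1 numbered 3 stood apart. Its genes followed GC content (Spearman's rho 0.694, against -0.228 to 0.223 in the other 22 libraries), and its FPKM summed to 667957, against at most 612482 elsewhere. Its title and its description also name different columns of the table. The description's column had a rho of -0.095, within the range of the other 22 libraries. Which column belongs to the library is not known. The title's column was used, and comparisons with Sa of set 1 are given with and without this library. Epithelium dominated every library: the 11 enterocyte markers summed to 5567 to 14360 FPKM, while 6 fibroblast markers (0.04 to 0.94 FPKM), 5 endothelial markers (0.13 to 0.35 FPKM) and 4 markers of neurons and glia (0.41 to 0.74 FPKM) were near 0. Smooth muscle markers summed to 7.19 to 12.1 FPKM, mostly Smtn, with Acta2, Myh11 and Des below 0.5 FPKM throughout. Macrophage and neutrophil markers summed to 5.01 to 7.85 FPKM, B cell and plasma cell markers to 1.03 to 2.76 FPKM, T cell markers to 4.09 to 23.6 FPKM and erythroid markers to 0.21 to 40.4 FPKM.

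RefSeq promoters (GRCm38.p6) were at hand for 8 of the 10 genes, those of Ier2 and Egr1 being the others. The windows of Fos, Zfp36 and Atf3 are shown because their levels went together most closely across the libraries. Each is the 250 bases before the start site, 5′ to 3′ on the gene's strand, with matches to the motifs searched in capitals. Fos lies at chr12:85473640-85473889 on the plus strand, Zfp36 at chr7:28379229-28379478 and Atf3 at chr1:191183334-191183583, both on the minus strand.
Fos: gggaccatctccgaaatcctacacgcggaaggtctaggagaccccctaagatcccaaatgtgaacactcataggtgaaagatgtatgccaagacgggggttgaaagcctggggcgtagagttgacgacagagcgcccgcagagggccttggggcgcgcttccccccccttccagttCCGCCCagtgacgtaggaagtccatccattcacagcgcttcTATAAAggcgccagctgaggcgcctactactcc
Zfp36: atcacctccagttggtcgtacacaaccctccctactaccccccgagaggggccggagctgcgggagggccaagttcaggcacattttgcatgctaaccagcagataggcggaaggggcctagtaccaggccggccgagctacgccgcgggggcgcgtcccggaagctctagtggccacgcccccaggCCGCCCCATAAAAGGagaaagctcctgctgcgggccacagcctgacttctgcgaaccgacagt
Atf3: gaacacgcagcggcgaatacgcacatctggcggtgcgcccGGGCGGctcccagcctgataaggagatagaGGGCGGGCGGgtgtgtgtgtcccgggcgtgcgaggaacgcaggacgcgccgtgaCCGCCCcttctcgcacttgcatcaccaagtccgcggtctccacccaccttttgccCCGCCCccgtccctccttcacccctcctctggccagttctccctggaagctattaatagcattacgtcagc

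Motifs of 5 kinds were searched on both strands of the 300-base windows, the last 50 bases of which lie after the start site. The CArG box, the sequence bound by serum response factor, matched in Zfp36 alone, from -58 to -49, where it shares 1 base with a GGGCGG match. It was held by 1.63% of all 32851 promoters given. TATAAA, present in 13.6% of promoters, lay in Fos from -33 to -28 and in Junb directly after the start site. TGACGTCA, the cAMP response element (1.79% of promoters), matched in Dusp1 alone, from -143 to -136. GGGCGG (35.7% of promoters) matched in 7 of the 8 windows, 5 times in Atf3, where 1 pair of matches overlaps, and not in Junb. TGANTCA, the AP-1 site (7.81% of promoters), matched in none of the 8. These are matches of letters in a short window only.

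Zfp36 was the most abundant of the 10 genes per unit of transcript length, with a mean of 55.8 FPKM over the 23 libraries, followed by Ier2 (50.05 FPKM) and Junb (44.5 FPKM). Jun (16.6 FPKM), Fos (13.4 FPKM) and Atf3 (8.59 FPKM) were intermediate. Egr1 (1.42 FPKM), Dusp1 (1.34 FPKM), Nr4a1 and Fosb were low. Zfp36 ranked at the 91.0 percentile of all entries and Fosb at the 31.1 percentile. From the lowest to the highest library Atf3 varied 3.25-fold and Fos 2.81-fold, while Ier2 and Zfp36 varied 1.495-fold and 1.482-fold.

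**Figure D1:**
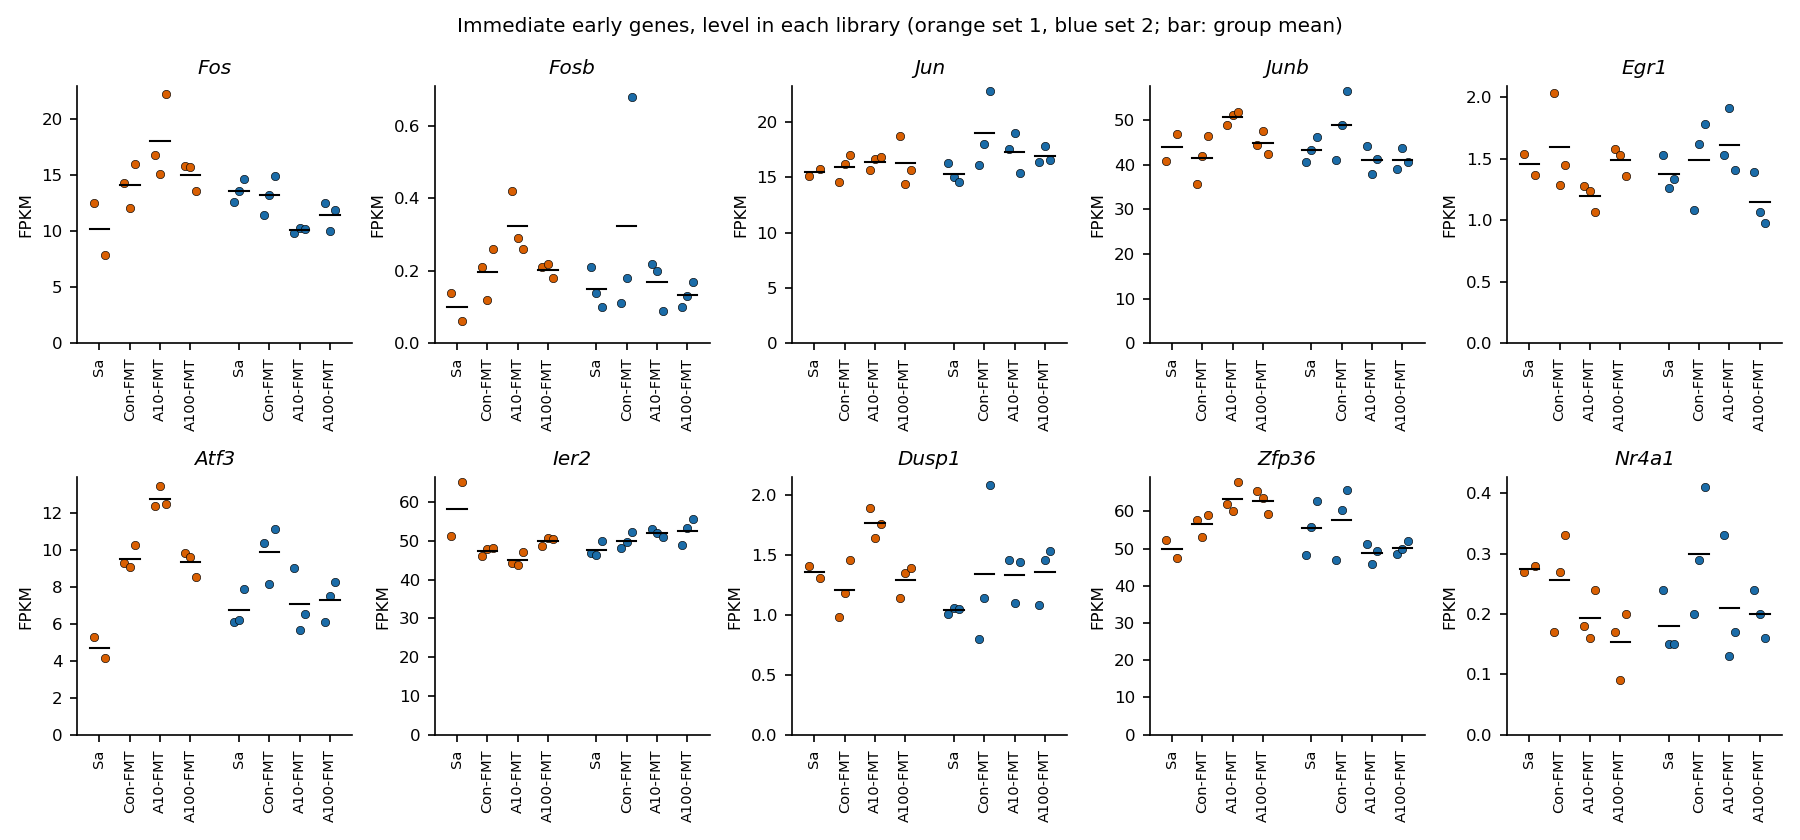
Level of each immediate early gene in every library, in FPKM on linear axes that start at 0, by treatment in set 1 (orange) and set 2 (blue). Each point is 1 library and each bar a group mean, with 2 libraries in Sa of set 1 and 3 in the other groups. Atf3 was lowest in a Sa library of set 1, at 4.15 FPKM, and highest in an A10-FMT library of set 1, at 13.5 FPKM.

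Atf3, a transcription factor induced by stress, was at 5.27 and 4.15 FPKM in the 2 Sa libraries of set 1. Con-FMT of set 1 gave 9.28, 9.07 and 10.3 FPKM. A10-FMT of set 1 gave 12.4, 13.5 and 12.5 FPKM. These were the 3 highest values of Atf3 in the whole series, and they did not overlap with those of any other group. How many of all genes had such a group was not counted. A100-FMT of set 1, at 9.86, 9.65 and 8.56 FPKM, overlapped with Con-FMT, with 1 library below every Con-FMT library. In set 2 the order was another: Sa gave 6.1, 6.21 and 7.88 FPKM and Con-FMT 10.4, 8.18 and 11.1 FPKM. A10-FMT gave 9.02, 5.68 and 6.52 FPKM and A100-FMT 6.13, 7.49 and 8.28 FPKM, both overlapping with Sa. Con-FMT was above every Sa library in both sets, by 0.89 on the log2 scale in set 1 and 0.49 in set 2, values given without a test. In set 1 it lay wholly above Sa for 18.8% of all genes tested, and in set 2 for 6.3%. Ranked by group mean, A10-FMT of set 1 (12.8 ± 0.60 FPKM, SD, n = 3) stood apart from the next group, Con-FMT of set 2 (9.90 ± 1.54 FPKM, n = 3). Sa of set 1 (4.71 ± 0.79 FPKM, n = 2) stood apart from Sa of set 2 (6.73 ± 0.997 FPKM, n = 3). Con-FMT and A100-FMT of set 1 overlapped with their neighbours above, and A100-FMT, A10-FMT and Sa of set 2 overlapped with one another.

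Fos, the classical partner of Jun in AP-1, was at 12.5 and 7.91 FPKM in Sa of set 1 and at 14.3, 12.1 and 16.0 FPKM in Con-FMT of set 1. A10-FMT of set 1 gave 16.8, 15.1 and 22.2 FPKM, and A100-FMT of set 1 gave 15.8, 15.8 and 13.6 FPKM. Both lay above Sa of set 1 and overlapped with Con-FMT. Among all genes tested, 13.9% lay wholly above Sa of set 1 after A10-FMT and 22% after A100-FMT. In set 2, Sa gave 12.6, 13.6 and 14.6 FPKM and Con-FMT 11.4, 13.2 and 14.96 FPKM. A10-FMT of set 2 was narrow, at 9.84, 10.3 and 10.2 FPKM, below every Sa and Con-FMT library of its set. A100-FMT of set 2, at 12.5, 10 and 11.9 FPKM, was below Sa and overlapped with Con-FMT. Wholly below Sa of set 2 lay 11.4% of all genes tested after A10-FMT and 10.1% after A100-FMT. After A10-FMT 8.3% lay wholly below Con-FMT of set 2. A10-FMT was thus the highest group for Fos in set 1 (18.03 ± 3.74 FPKM, SD, n = 3) and the lowest in set 2 (10.1 ± 0.24 FPKM, n = 3).

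Junb, a partner of Fos in AP-1, was at 49.1, 51.2 and 52.0 FPKM in A10-FMT of set 1. Con-FMT of set 1 was lower in each library, at 35.8, 42.1 and 46.6 FPKM. In set 2, A10-FMT gave 44.2, 38.1 and 41.3 FPKM and Con-FMT 41.1, 49.0 and 56.7 FPKM, with overlap. Sa was at 40.9 and 47.0 FPKM in set 1 and at 40.7, 43.5 and 46.3 FPKM in set 2. A100-FMT was at 44.5, 47.7 and 42.5 FPKM in set 1 and at 39.1, 43.9 and 40.6 FPKM in set 2, so Sa and A100-FMT overlapped in both sets. Jun, the other AP-1 partner, had group means from 15.3 ± 0.86 FPKM in Sa of set 2 to 19.0 ± 3.48 FPKM in Con-FMT of set 2 (SD, n = 3), and in that order every group overlapped with the next. Fosb was at 0.42, 0.29 and 0.26 FPKM in A10-FMT of set 1 and at 0.14 and 0.06 FPKM in Sa of set 1. Its highest value, 0.68 FPKM, was in 1 Con-FMT library of set 2.

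Zfp36 encodes tristetraprolin, an RNA-binding protein that marks AU-rich transcripts for decay. In set 1 it was at 52.2 and 47.4 FPKM in Sa, 57.7, 53.1 and 59.0 FPKM in Con-FMT, 62.0, 60.2 and 68.0 FPKM in A10-FMT and 65.5, 63.6 and 59.3 FPKM in A100-FMT. All 9 transplant libraries of set 1 were above both Sa libraries. Of all genes tested, 18.8% lay wholly above Sa of set 1 after Con-FMT, 13.9% after A10-FMT and 22% after A100-FMT. In set 2, A10-FMT gave 51.3, 45.9 and 49.3 FPKM and A100-FMT 48.5, 49.9 and 51.9 FPKM. Both overlapped with Sa of set 2 (48.2, 55.9 and 62.7 FPKM) and with Con-FMT of set 2 (46.8, 60.4 and 65.8 FPKM). Dusp1, a phosphatase that switches off MAP kinases, was at 1.89, 1.64 and 1.76 FPKM in A10-FMT of set 1. That was above every library of the other 3 treatments of set 1, which ran from 0.98 to 1.46 FPKM. The share of all genes with that order was not counted. In set 2 Dusp1 ran from 0.8 to 2.08 FPKM, both ends being Con-FMT libraries.

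Ier2, a nuclear regulator of the immediate early class, ran the other way from Fos. It was at 51.4 and 65.3 FPKM in Sa of set 1, the higher value being the library that stood apart. Con-FMT of set 1 was at 46.0, 47.9 and 48.2 FPKM, A10-FMT of set 1 at 44.2, 43.7 and 47.1 FPKM, and A100-FMT of set 1 at 48.7, 50.7 and 50.6 FPKM. All 9 were below both Sa libraries of set 1. Wholly below Sa of set 1 lay 13.5% of all genes tested after Con-FMT, 23.5% after A10-FMT and 17.9% after A100-FMT. In set 2, Sa gave 47.0, 46.2 and 50.1 FPKM, Con-FMT 48.1, 49.6 and 52.2 FPKM, A10-FMT 53.0, 52.0 and 51.1 FPKM and A100-FMT 49.0, 53.5 and 55.6 FPKM. Here A10-FMT was above every Sa library, as it was for 19.2% of all genes tested. Egr1, a zinc finger factor, was between 0.98 and 2.04 FPKM, and A10-FMT of set 1 (1.28, 1.24 and 1.07 FPKM) lay below Con-FMT of set 1 (2.04, 1.29 and 1.45 FPKM). Nr4a1, an orphan nuclear receptor, stayed between 0.09 and 0.41 FPKM. Con-FMT library 3 of set 2 held the highest value of Fosb, Jun, Junb, Dusp1 and Nr4a1. The share of all genes with their highest value in that library was not counted.

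The comparison of A10-FMT with Con-FMT asks what the AOS dosing of the donors adds to a transplant, and its answer differed between the sets. Relative to Con-FMT, A10-FMT went from a higher level in set 1 to a lower level in set 2 for Atf3, Junb and Fos. In set 1 Atf3 was 0.39 higher on the log2 scale (1.31-fold) and in set 2 it was 0.44 lower (0.735-fold), and the difference between the sets was -0.83 ± 0.20 (SE, limma, adjusted p = 0.0075). For Junb the values were 0.29 in set 1 and -0.23 in set 2, with a difference of -0.53 ± 0.15 (adjusted p = 0.0181). Fos gave 0.32 in set 1 and -0.34 in set 2, a difference of -0.67 ± 0.21 (adjusted p = 0.0335). Zfp36 gave 0.16 and -0.22, and its difference of -0.38 ± 0.15 did not pass (adjusted p = 0.0705). Dusp1 gave 0.33 in set 1 and 0.03 in set 2 (adjusted p for the difference 0.31), Jun 0.04 and -0.12 (0.495), Ier2 -0.07 and 0.06 (0.359), and Egr1 -0.23 and 0.08 (0.212).

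So 3 of the 8 genes tested fell from set 1 to set 2 and none rose, beside 6.7% of all 11337 genes tested that were called lower and 14.1% called higher in the same comparison. The median difference of the 8 genes was -0.34, beside 0.13 for all genes tested. Trimmed-mean scaling moved that overall median to 0.02 and turned the balance of all calls, from 1594 higher and 760 lower to 639 higher and 1043 lower. Of the 33 alternatives computed, Atf3 kept its call in all, with differences from -0.999 to -0.71. Junb lost its call in 2, without Con-FMT library 1 of set 1 (difference -0.43, adjusted p = 0.0547) and without A10-FMT library 2 of set 2 (-0.47, adjusted p = 0.0539). Fos lost it in 10, with differences between -0.69 and -0.52 and an adjusted p of at most 0.0975. These were the fit of all genes, the correction for GC content and length, and leaving out library 1 or 2 of Con-FMT of set 1, library 3 of A10-FMT of set 1, library 2 or 3 of Con-FMT of set 2 or any A10-FMT library of set 2.

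**Figure D2:**
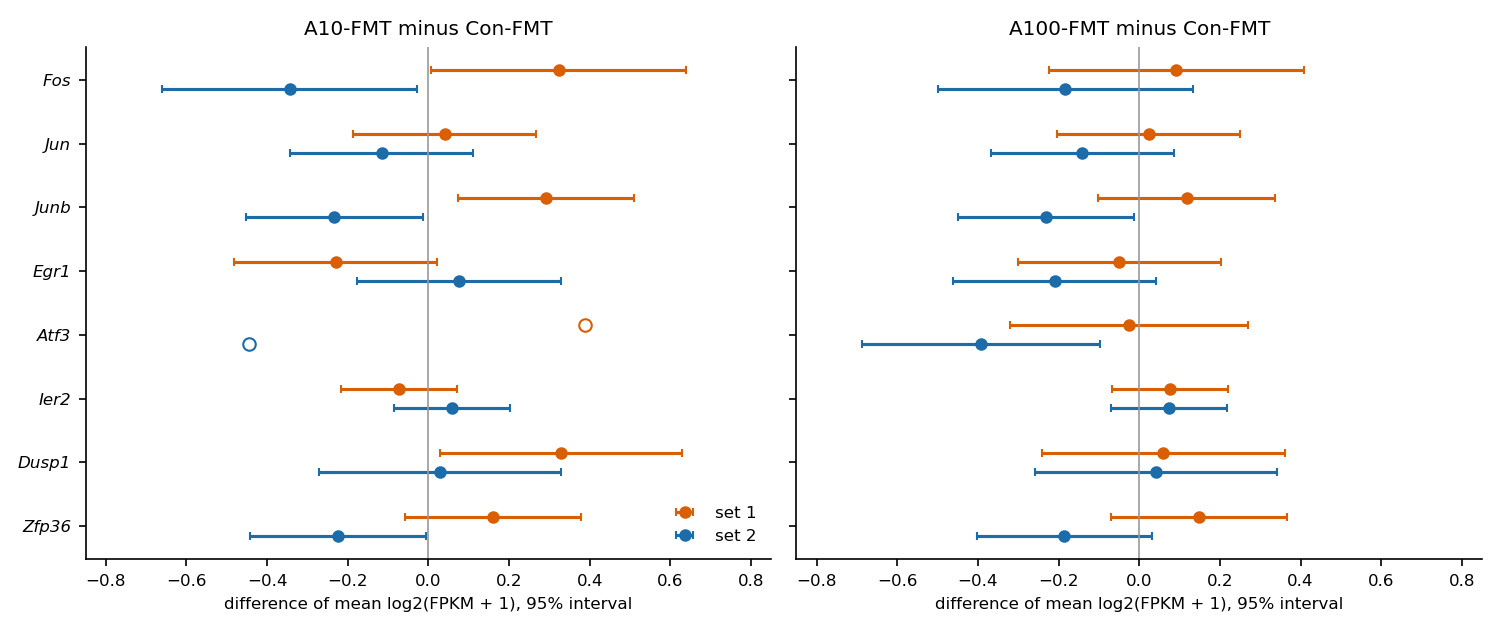
Difference from Con-FMT in mean log2(FPKM + 1) for the 8 genes tested, after A10-FMT (left) and A100-FMT (right), in set 1 (orange) and set 2 (blue). Bars are 95% intervals from limma, and the open points of Atf3 are values without a test. After A10-FMT, Atf3, Junb, Fos and Zfp36 lie to the right of 0 in set 1 and to the left of 0 in set 2.

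Within a single set no gene of the group passed in this comparison. In set 1 none of the 7 with a test was called (limma, 3 at an unadjusted p under 0.05: Junb, Fos and Dusp1), beside 5.2% of all genes called higher and 11.5% called lower. Junb was nearest, at 0.29 ± 0.10 (adjusted p = 0.0617), followed by Dusp1 at 0.33 ± 0.14 (adjusted p = 0.122) and Fos at 0.32 ± 0.15 (adjusted p = 0.148). In set 2 none of the 7 was called (3 at an unadjusted p under 0.05: Fos, Junb and Zfp36), beside 0.379% of all genes in either direction, with Fos at -0.34 ± 0.15 (adjusted p = 0.366). Averaged over both sets no gene was called, of these 7 or of all 11337, and none of the 7 had an unadjusted p under 0.05. By ranges, 4 of the 10 genes lay wholly above Con-FMT after A10-FMT in set 1 (Junb, Atf3, Dusp1 and Zfp36), as did 12.2% of all genes tested, and 1 lay below (Egr1), as did 29.8%. In set 2 Fos alone lay below, as did 8.3% of all genes, and none lay above, as did 17%.

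Summed enterocyte markers moved with these values. The summed enterocyte markers were 11790 to 14360 FPKM in A10-FMT of set 1, above every other library, and 5567 to 7298 FPKM in A10-FMT of set 2. In Con-FMT the sums were 7503 to 8728 FPKM in set 1 and 8021 to 9961 FPKM in set 2. Of the 11 markers, 7 were called lower and 1 higher (Cdh1, 0.31) in the difference between the sets, with a median of -0.81. Fabp2, Apoa4 and Apoa1, genes of fat uptake and transport, had differences between the sets of -1.88, -1.84 and -1.60 in the same comparison (adjusted p = 0.000327, 0.00019 and 0.000807). Epcam, present on the whole epithelium, had a difference of -0.04 (adjusted p = 0.724). The T cell markers, with Cd4 below 0.5 FPKM throughout, summed to 4.09 to 6.17 FPKM in A10-FMT of set 2 and 7.22 to 23.6 FPKM in Con-FMT of set 2. In set 1 they overlapped, at 6.19 to 11.53 FPKM in A10-FMT and 6.33 to 14.85 FPKM in Con-FMT. In bulk tissue fewer cells of a type and less RNA per cell cannot be told apart, and the part of these markers in the result was not tested.

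A10-FMT of set 2 compared with A10-FMT of set 1 by ranges had 6 of the 10 genes wholly below (Fos, Fosb, Junb, Atf3, Dusp1 and Zfp36), as did 14% of all genes tested, and 2 wholly above (Egr1 and Ier2), as did 40.5%. Con-FMT of the sets overlapped for all 10 genes, while 6.25% of all genes lay above and 8.16% below in set 2. Over all 4 treatments, set 2 compared with set 1 gave no called gene of the 8 (limma, 3 at an unadjusted p under 0.05: Fos, Atf3 and Zfp36), beside 10.7% of all genes called higher and 2.62% called lower. Fos was at -0.20 ± 0.08 (adjusted p = 0.0797), Zfp36 at -0.13 ± 0.05 (adjusted p = 0.094) and Atf3 at -0.16 ± 0.07 (adjusted p = 0.128).

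After A100-FMT none of the 8 genes was called against Con-FMT (limma), in set 1, in set 2, over both sets or as a difference between the sets. Of all genes 0.406% were called in set 1, 0% in set 2, 0.123% over both sets and 0% as a difference. Atf3 could be tested here and was at -0.03 in set 1 (95% interval -0.32 to 0.27, adjusted p = 0.9754) and at -0.39 in set 2 (-0.69 to -0.10, adjusted p = 0.309). Junb was at 0.12 in set 1 and -0.23 in set 2 (adjusted p = 0.41). Atf3 and Junb had an unadjusted p under 0.05 in set 2, and Zfp36 and Junb as a difference between the sets, while no gene did in set 1 or over both sets. Over both sets the intervals ran from -0.42 to 0.00 for Atf3, from -0.27 to 0.18 for Fos and from -0.03 to 0.18 for Ier2. Between the transplants, A100-FMT against A10-FMT gave no called gene of the 7 over both sets (limma, none at an unadjusted p under 0.05), beside 0.132% of all genes.

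Against Sa, the comparison that asks what any transplant does in the injured intestine, set 1 held all the calls. Ier2 was lower in Con-FMT by 0.29 on the log2 scale (0.821-fold, SE 0.08, adjusted p = 0.0265), the 1 call among 7 genes tested, beside 26.9% of all genes called. In A100-FMT of set 1, Fos was higher by 0.54 ± 0.17 (1.46-fold, adjusted p = 0.023), Zfp36 was higher by 0.33 ± 0.12 (1.26-fold, adjusted p = 0.0367) and Ier2 was lower, at -0.21 ± 0.08 (adjusted p = 0.0438). These were 3 of 7 genes, beside 35.2% of all genes called. Each of the 4 calls was lost without the Sa library that stood apart: Ier2 was then at -0.12 in Con-FMT and -0.04 in A100-FMT, Fos at 0.24 and Zfp36 at 0.26 (adjusted p from 0.465 to 0.847). Con-FMT lost its call also without its own library 1 or 3, and A100-FMT lost all 3 without its own library 1 or 2 and kept Fos alone without its library 3. Ier2 in A100-FMT lost its call in 20 of 33 alternatives, 14 of them leaving out 1 library, including libraries outside the comparison. The 26.9% of all genes for Con-FMT depended on the column taken for that Sa library. Far fewer genes were called with the description's column, as counted in the closing section. In set 2 no gene of the 7 was called against Sa after Con-FMT or A100-FMT (limma, 1 at an unadjusted p under 0.05, Jun in Con-FMT), beside 0.0353% of all genes in each. Over both sets none was called after Con-FMT (1 at an unadjusted p under 0.05, Ier2) or A100-FMT (none), beside 0.75% and 0.891% of all genes.

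A10-FMT against Sa chose the group in part, so only values are given. Over both sets Atf3 was 0.66 higher (1.58-fold), made of 1.28 in set 1 and 0.05 in set 2. Of all genes 0.106% were called higher and 0.0265% lower over both sets. Fos was 0.78 higher in set 1 and 0.39 lower in set 2, Zfp36 0.34 higher and 0.18 lower, and Ier2 0.36 lower and 0.12 higher. Without the Sa library that stood apart, the set 1 values were 1.14 for Atf3, 0.47 for Fos, 0.27 for Zfp36 and -0.19 for Ier2.

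The difference between the sets was tested for each comparison with Sa. For Atf3 these tests are not independent of the choice of the genes, as said at the start. After A10-FMT, Atf3 (-1.23 ± 0.21, adjusted p = 0.000793), Fos (-1.17 ± 0.23, adjusted p = 0.00155) and Zfp36 (-0.52 ± 0.16, adjusted p = 0.0194) were lower in set 2 than in set 1, and Ier2 was higher (0.48 ± 0.10, adjusted p = 0.00296). These were 4 of 8 genes, beside 10.6% of all genes called lower and 17.8% called higher. Atf3 is in this count and in the one after A100-FMT, so neither count is independent of the choice. After A100-FMT the same 4 genes were called, Atf3 at -0.76, Fos at -0.77, Zfp36 at -0.47 and Ier2 at 0.35 (adjusted p from 0.019 to 0.0358), beside 13.5% called lower and 13.3% called higher. Both comparisons share the Sa libraries. By ranges, Sa of set 2 lay wholly above Sa of set 1 for Atf3 and Fos, as did 25.6% of all genes tested. Ier2, Dusp1 and Nr4a1 lay wholly below, as did 18.5%. For Fos the nearest values were 12.57 FPKM in set 2 and 12.54 FPKM in set 1. Without the Sa library that stood apart, Atf3 (-1.09), Fos (-0.86) and Ier2 (0.31) remained called after A10-FMT, Zfp36 did not (-0.45, adjusted p = 0.0826), and none of the 4 remained after A100-FMT (adjusted p from 0.13 to 0.205). With array weights no gene was called in either comparison. After A100-FMT the count fell to 2 without A100-FMT library 1 of set 1, A100-FMT library 2 of set 2 or Sa library 2 of set 2, Atf3 being called each time. After Con-FMT none of the 8 genes was called (limma, 2 at an unadjusted p under 0.05: Ier2 and Fos), beside 0.00882% of all genes, with Atf3 at -0.40 (adjusted p = 0.187).

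Across the 23 libraries the 10 genes did not move as a block. Fos and Zfp36 were the most alike pair (Pearson's r 0.85, Spearman's rho 0.84), and both followed Atf3 (r 0.70 and 0.69). Junb went with Dusp1 (r 0.67), as did Fosb (0.67). Fos and Ier2 were the most opposed pair (r -0.68), and Ier2 had no r above 0.23 with any of the other 9. Over all 45 pairs the median r was 0.28, and 13 pairs were over 0.5. These are descriptions: the libraries share groups, and library composition is common to all genes of a library. With the group means taken out, Fos and Zfp36 still went together (r 0.66), Fos and Atf3 much less (0.22), and Fos and Ier2 were at -0.25. Over all libraries, with the group means left in, summed enterocyte markers had an r of 0.81 with Fos, 0.78 with Zfp36 and 0.72 with Atf3. It was 0.68 with Junb, -0.50 with Ier2 and 0.01 with Jun. With the group means taken out, these were 0.56 for Fos, 0.72 for Zfp36, 0.62 for Atf3, 0.62 for Junb, 0.03 for Ier2 and 0.13 for Jun. The sum gives most weight to the most abundant markers. Of its mean of 9066 FPKM, Apoa1 made up 2341, Fabp2 1531 and Fabp1 1152 FPKM.

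**Figure D3:**
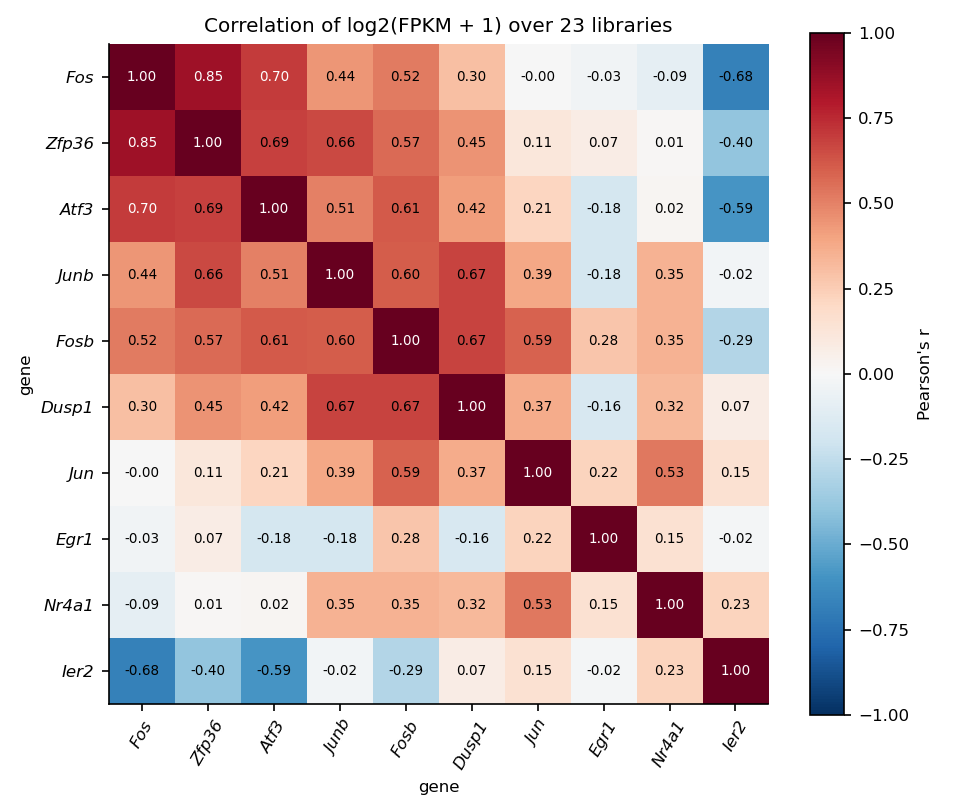
Pearson's r between each pair of immediate early genes over 23 libraries, on log2(FPKM + 1). Red is positive and blue negative. Fos, Zfp36, Atf3, Junb, Fosb and Dusp1 form the red corner, Ier2 is blue against Fos (-0.68) and Atf3 (-0.59), and Jun, Egr1 and Nr4a1 are mostly pale.

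Among the genes outside the group, those whose levels followed Atf3 most closely were Slfn2 (r 0.93), Zbp1 (0.90), Oasl1 (0.89), Rsad2 (0.89) and Usp18 (0.88), all known as interferon-inducible genes. The 95th percentile of r with Atf3 over all genes tested outside the group was 0.57. Slfn2, of the Schlafen family, was at 62.8 ± 6.84 FPKM in A10-FMT of set 1 and 40.8 ± 7.67 FPKM in A10-FMT of set 2 (SD, n = 3). In Con-FMT it was at 55.4 ± 4.41 FPKM in set 1 and 53.4 ± 1.001 FPKM in set 2. Without the Sa library that stood apart, the r of Slfn2 with Atf3 was 0.90. With the group means taken out it was 0.75, against a 95th percentile of 0.41. That r was 0.65 for Zbp1, 0.77 for Oasl1, 0.73 for Rsad2 and 0.61 for Usp18. By it Slfn2 ranked 10 among the genes outside the group, Zbp1 38, Oasl1 7, Rsad2 15 and Usp18 60. The mean of the other 7 genes tested was followed closely by other genes, among them Ccdc120 (r 0.90), Gprc5a (0.81), Smad7 (0.80) and Trpm5 (0.79), against a 95th percentile of 0.51. Smad7 is an inhibitor of TGF-beta signalling.

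**Figure D4:**
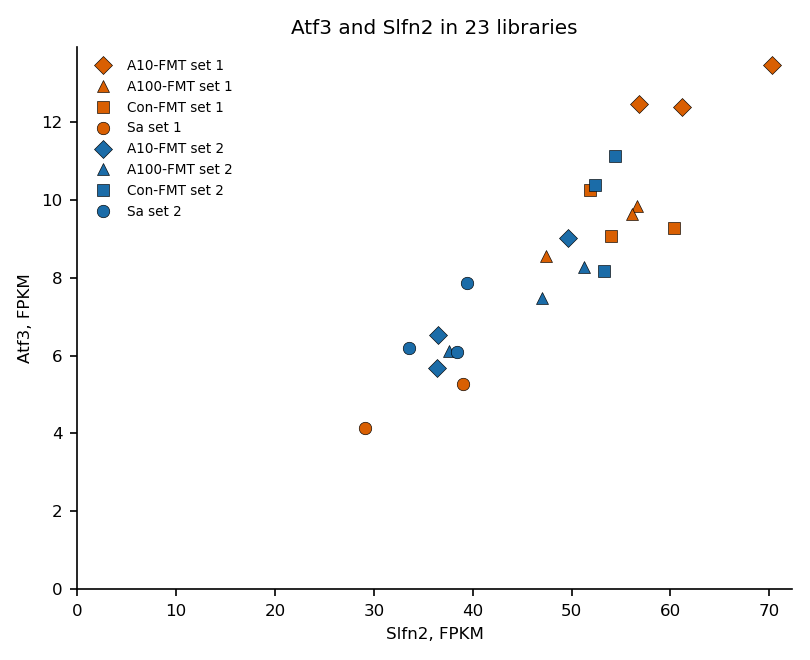
Atf3 against Slfn2 in 23 libraries, both in FPKM on linear axes from 0. Each point is 1 library, the colour gives the set (orange set 1, blue set 2) and the shape the treatment. A10-FMT of set 1 lies at the upper right and Sa at the lower left, and A10-FMT of set 2 lies lower than A10-FMT of set 1 on both axes.

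Other AP-1 genes were read from a list of 13, of which 10 passed the filter. In the difference between the sets of A10-FMT against Con-FMT, 4 were called lower and 1 higher, beside 6.7% and 14.1% of all genes tested, with a median of -0.10 beside 0.13 for all genes. The most abundant, Jund (mean 135 FPKM), was at -0.18 ± 0.15 (adjusted p = 0.415), Mafk at 0.01 and Batf2 at -0.43 ± 0.12 (adjusted p = 0.0209). Jdp2 (-0.90 ± 0.22, adjusted p = 0.00772) and Maff (-0.77 ± 0.15, adjusted p = 0.00168), singled out after their values were seen, were also among those called lower, and Atf7 (0.51 ± 0.12, adjusted p = 0.00848) was the 1 called higher.

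A list of 39 other immediate early genes, 26 of which passed the filter, had 8 called lower and 4 called higher in that difference, beside 6.7% and 14.1% of all genes tested, with a median of -0.19. By abundance Zfp36l2 came first, a relative of Zfp36, and it was called higher (0.47 ± 0.08, adjusted p = 0.000844). Klf4, a factor of differentiated epithelium, was called lower (-1.12 ± 0.17, adjusted p = 0.000364), and Cebpb was not called (0.11). Klf4 was at 55.2 ± 4.17 FPKM in A10-FMT of set 1 and 30.2 ± 1.09 FPKM in A10-FMT of set 2, against 36.1 ± 5.29 and 43.7 ± 3.11 FPKM in Con-FMT (SD, n = 3). The further genes named here for a call were chosen after their values were seen. Areg, a ligand of the EGF receptor, had the largest difference of the list (-2.36 ± 0.36, adjusted p = 0.000424), at 10.8 ± 1.85 FPKM in A10-FMT of set 1 and 2.19 ± 0.36 FPKM in A10-FMT of set 2. Dusp6, a phosphatase specific for ERK, was at -1.61, Dusp5 at -0.62, Hbegf, another ligand, at -0.49, and Errfi1, an inhibitor of the receptor, at -0.49. Rhob (-0.65) and Ier5 (-0.53) were the other 2 called lower, and Klf10 (0.74), Per1 (0.52) and Myc (0.48) were called higher.

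**Figure D5:**
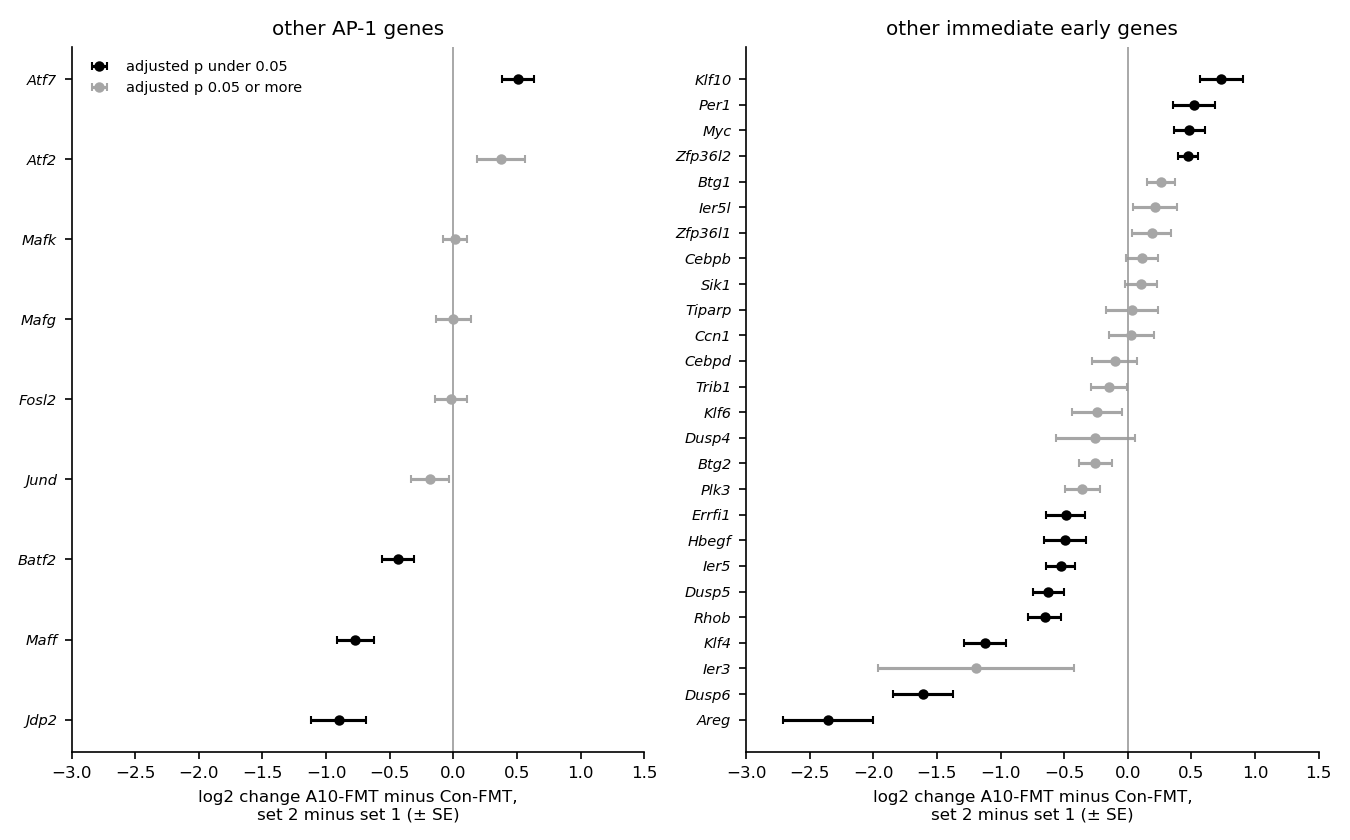
Difference between the sets (set 2 minus set 1) of the log2 change A10-FMT minus Con-FMT, with its SE, for 9 other AP-1 genes (left) and the 26 other immediate early genes (right) that passed the filter. Black points were called and grey points were not. Areg at -2.36, Dusp6 at -1.61 and Klf4 at -1.12 lie farthest to the left among the called genes drawn.

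For the remaining lists the same difference is given beside the same background of 14.1% of all genes called higher and 6.7% called lower, and the genes named here for a call were chosen after their values were seen. Of 20 genes of the integrated stress response and unfolded protein response, in which Atf4 is the usual inducer of Atf3, 1 was called higher (Ddit4, 0.59) and 1 lower (Trib3, -0.70). Its most abundant genes were not called, Hspa5 at -0.12, Atf4 at -0.15 and Xbp1 at -0.09. Among 18 genes of the signalling that reaches immediate early promoters, 4 were called higher (Mrtfb, Elk1, Elk4 and Egfr, 0.45 to 0.58) and Map2k1 was called lower (-0.33). Mapk3 (-0.24), Rps6ka1 (0.05) and Map2k2 (-0.23) were not called. The heat shock list had 1 of 8 called higher (Hsf1, 0.36), with Hspa8 at 0.08, Hspd1 at 0.28 and Hspe1 at 0.16. None of 9 genes of NF-kB feedback was called (Bcl3 -0.11, Nfkbia 0.05 and Nfkbiz -0.07). Over both sets, A100-FMT against Sa had 2 calls in all lists, Nfkbiz (0.48 ± 0.08, adjusted p = 0.0283) and Mafg (0.37 ± 0.07, adjusted p = 0.0401), and Con-FMT against Sa or A10-FMT against Con-FMT had none.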

How the data were processed

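Small intestine was sequenced as mRNA on an Illumina HiSeq instrument from 23 libraries in 8 groups. The authors deposited 1 table of FPKM values for 19215 entries, made on build mm10 per the labels. The aligner and counter are not given in the sources used here. Read depth is unknown. From the steps between low values, 22 libraries had a relative depth of 0.786 to 1.09 of the typical library. Since FPKM values are not counts, no count model was used: log2(FPKM + 1) was fitted by limma 3.58.1 (R 4.3.3) with 8 group means and a mean-variance trend, over 11337 genes whose mean over all libraries reached 1 FPKM, with Benjamini-Hochberg adjustment over all of them and two-sided tests. The group labelled IMC was taken as Con-FMT, as the methods describe it. For 1 Sa library the title's column was used and the description's column was an alternative. Gene numbers were read from the authors' table, and symbols were taken for them from a RefSeq reference. Of 17842 NCBI gene numbers 17725 had a symbol in the reference, and 92.9% of the genes tested had a GC content and length. Values were read and summarised with Python 3.11.15, pandas 2.3.3, numpy 2.4.6 and scipy 1.17.1, and drawn with matplotlib 3.10.9. The fit was tested on simulated data with large changes, for A100-FMT against Con-FMT over both sets only. Changes as small as those reported here and differences between the sets were not part of that test.

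The 10 genes and all lists were chosen with earlier results of these data known. Named besides the 10 genes were, of each pathway list, the 3 tested genes of highest mean FPKM and up to 5 called over both sets, and the 5 genes most correlated with Atf3 or with the mean of the other 7. Of the genes this rule or the lists name, 2 are not reported here. Alternatives were a pseudocount of 0.1 FPKM, other filters, quantile and trimmed-mean scaling, array weights, a correction for GC content and length, a replicate block, the description's column, fits on the groups compared alone, and leaving out each library.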

Additional observations from a re-analysis of the deposited data

Results flagged for a closer look

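For 4 genes the change from Sa to A10-FMT differed between the sets, by a test of the difference itself (set 2 minus set 1, log2 scale, limma): Atf3 by -1.23 (adjusted p = 0.000793), Fos by -1.17 (0.00155), Zfp36 by -0.52 (0.0194) and Ier2 by 0.48 (0.00296). The average of the 2 sets chose these genes in part. The difference between the sets was not used as such, but for Atf3 it is not independent of that choice. It rests on the same libraries, with 2 of Sa in set 1 and 3 in set 2. The change from Sa to A100-FMT differed for the same 4 genes, Atf3 by -0.76 (adjusted p = 0.019), Fos by -0.77 (0.0225), Zfp36 by -0.47 (0.0358) and Ier2 by 0.35 (0.0245). Both use the same Sa libraries. Without Sa library 3 of set 1, the A100-FMT values became -0.62, -0.47, -0.4 and 0.18, in the order given. The A10-FMT values became -1.09, -0.86, -0.45 and 0.31. With array weights the calls of both comparisons were lost. The change from Con-FMT to A10-FMT differed for Atf3 by -0.83 (adjusted p = 0.0075), for Junb by -0.53 (0.0181) and for Fos by -0.67 (0.0335), with no Sa library in the contrast. No library of a group could be checked for standing apart within its group on a single gene, since groups held 2 or 3 libraries.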

How the results depend on the processing

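The labels do not say what separates the sets, depth is unknown, and groups of 2 or 3 libraries limit the precision of each value. The causes of the changes below were not tested. Of the counts of called genes, 168 values under the alternatives that keep all libraries stayed within 1.5 times and 21 did not, and with 1 library left out 411 did and 26 did not.

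For Con-FMT against Sa in set 1 (1 called) the count was 2 with a filter of 5 FPKM and 0 with array weights, the description's column, the GC content and length correction or the compared groups alone. With a replicate block it was 2, Fos being added (0.51, adjusted p = 0.0452). The block changed no other call. Libraries of 1 number correlated from -0.352 to 0.319 in their deviations (33 pairs, median 0.002), with 10 over 0.1. For A100-FMT against Sa in set 1 (3 called) the count was 1 with all genes or quantile scaling and 0 with array weights, the description's column or the compared groups alone. A10-FMT against Con-FMT in set 1 (0 called) gave 1, Junb, with trimmed-mean scaling, array weights, the description's column or the GC content and length correction. In set 2 (0 called) array weights gave 1, Fos. A100-FMT against Sa in set 2 (0 called) gave 1, Ier2, with array weights, and set 2 against set 1 (0 called) gave 1, Fos, with quantile scaling. The differences between the sets against Sa (4 called in each) fell to 0 with array weights for A10-FMT, and to 0 with array weights or the compared groups alone for A100-FMT.

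Leaving out 1 library at a time, the counts ran from 0 to 2 for A10-FMT against Con-FMT in set 1, from 1 to 4 for its difference between the sets (1 without Con-FMT library 1 of set 1 or A10-FMT library 2 of set 2), from 3 to 4 for the difference of A10-FMT against Sa, from 0 to 3 for A100-FMT against Sa in set 1, from 0 to 2 over both sets (2 without Sa library 1 of set 1) and from 0 to 4 as a difference (0 without Sa library 3 of set 1). They ran from 0 to 2 for Con-FMT against Sa in set 1, over both sets and as a difference, and from 0 to 1 for set 2 against set 1 (Fos without Sa library 3 of set 1, Atf3 without A10-FMT library 1 of set 2). For Con-FMT against Sa all 3 counts reached 2, Ier2 and Fos, without Sa library 1 of set 1. For A10-FMT against Con-FMT in set 1 the count of 2, Junb and Dusp1, came without Con-FMT library 3 of set 2. The Atf3 difference of A10-FMT from Sa over both sets (0.66) ran from 0.58 to 0.73. Signs turned for Dusp1 in Con-FMT against Sa of set 2 (-0.0557 without Con-FMT library 3 of set 2, 0.332 without library 1) and for Junb in the difference between the sets of that comparison (-0.00659 with the description's column, -0.0295 with the GC content and length correction). Over all genes, 45 were called for Con-FMT against Sa in set 1 with the description's column, against 3051 with the title's column.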
